A study of Mus musculus with 6 samples.

Results

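The genes described here encode 10 proteins that bind AU-rich or stem-loop elements of mRNA, cut such mRNAs, or control the proteins that do. They are Zfp36, Zfp36l1 and Zfp36l2, Zc3h12a and Zc3h12c, Rc3h1 and Rc3h2, Elavl1, Khsrp, and the kinase gene Mapkapk2. They were taken by symbol from the 25044 genes of the count table, each matched 1 identifier, and all 10 passed the filter on low counts. The study sequenced RNA of peritoneal macrophages from wild-type C57BL/6 mice aged 8 weeks. The treated cultures received 100 nM trametinib, which blocks the ERK-activating kinases MEK1 and MEK2, for 2 h and then LPS, a bacterial ligand of TLR4, at 100 ng/ml for 12 h. The other cultures received the vehicle DMSO for 2 h and then the same LPS. Each group had 3 libraries, and no culture without LPS was analysed here, so changes caused by LPS itself cannot be seen. The cells were collected 3 days after thioglycollate, selected by adherence for 1 h and cultured for a further 24 h, and the labels name 3 mice without saying which mouse gave which library.

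Cytokine mRNAs such as that of Tnf are short-lived because their 3′ untranslated regions carry AU-rich elements. Tristetraprolin (TTP, from Zfp36) and its relatives bind these elements and bring in the CCR4-NOT deadenylase, which removes the poly(A) tail. Regnase-1 (Zc3h12a) cuts stem-loops in mRNAs such as that of Il6, and the Roquin proteins (Rc3h1 and Rc3h2) bind similar stem-loops. HuR (Elavl1) binds AU-rich elements and protects the mRNA. The kinase p38 activates MK2 (Mapkapk2), and MK2 phosphorylates TTP and so holds back its action on AU-rich mRNAs. RNA levels say nothing of this phosphorylation, nor of protein amounts.

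The element that TTP prefers is the nonamer UUAUUUAUU. It was searched in the 3′ untranslated region of the principal GENCODE transcript of each gene, on the transcript strand and counting overlapping copies, and was found in 7.52% of the 10883 tested genes that have such a region. Among the 10 genes, Elavl1 held 8 copies, Zfp36, Zfp36l1, Zfp36l2, Rc3h1 and Rc3h2 held 1 each, and Zc3h12a, Zc3h12c, Khsrp and Mapkapk2 held none. The windows of 30 bases below are shown because they place the element that these proteins read in their own transcripts beside the element in known targets. The nonamers stand in capitals and the sequences come from the GENCODE M21 transcripts on mm10.
Zfp36, chr7:28376950-28376979, minus strand: uaugacgacuUUAUUUAUUguauuaagauu
Zfp36l1, chr12:80108166-80108195, minus strand: aacuguuggaUUAUUUAUUuuagaaauucu
Elavl1, chr8:4285781-4285810, minus strand: aaaaUUAUUUAUUUAUUUAUUUAUUuuuau
Tnf, chr17:35199679-35199708, minus strand: aUUAUUUAUUAUUUAUUUAUUAUUUAUUua
Cxcl2, chr5:90905326-90905355, plus strand: UUAUUUAUUuaucuauguauUUAUUUAUUu
Ptgs2, chr1:150105790-150105819, plus strand: cugaccauauUUAUUUAUUuaugugaagaa

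The promoter of Zfp36 is shown because Zfp36 is known as an immediate early gene, and its level rose here while MEK was inhibited. RefSeq promoter windows on GRCm38.p6 were matched for 9 of the 10 genes, with Zfp36l2 unmatched, and 4 motifs were searched on both strands in the 250 bases before each start: CCGGAA (the ETS core), TGACTCA (AP-1), GCGTGGGCG or GCGGGGGCG (EGR) and the CArG box (bound by SRF). Zfp36 held an EGR match at −105 to −97, an ETS match at −92 to −87 and a CArG box at −58 to −49, counted from the start, with no overlap between them. These stand in capitals in the sequence from chr7:28379229-28379478, minus strand. The start used is that of RefSeq. GENCODE M21 starts the gene further upstream, so the whole window lies inside the Zfp36 span and exon that GENCODE gives.
Zfp36 promoter: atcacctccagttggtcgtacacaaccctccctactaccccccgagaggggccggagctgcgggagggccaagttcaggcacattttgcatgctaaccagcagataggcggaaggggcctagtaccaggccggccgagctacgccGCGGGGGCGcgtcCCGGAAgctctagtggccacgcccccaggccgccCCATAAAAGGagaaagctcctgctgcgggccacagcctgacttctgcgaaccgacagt
Of 32851 such windows of all genes, 12% held the ETS core, 3.06% the EGR motif, 1.47% the CArG box and 4.46% the AP-1 motif. In 3 windows the ETS, EGR and CArG matches stood together. That combination is the one Zfp36 holds and no other was counted, so the count is a description and not a test. The only other matches in the windows of the 10 genes were an ETS core in Zc3h12a and an AP-1 motif in Rc3h1. A match describes these letters and is not evidence of binding.

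The libraries held 17453778 to 19648467 counts. Egr1, a direct output of ERK signalling, was at 0.0591 to 0.111 CPM (counts per 1000000 counts of the TMM-scaled library total) in the trametinib libraries and 3.62 to 9.93 CPM in the vehicle libraries, and Spry2, an ERK feedback inhibitor, was at 0.322 to 0.390 CPM in the trametinib libraries and 1.40 to 4.35 CPM in the vehicle libraries. Vehicle replicate 3 was the lowest vehicle library for both genes. Across genes, the chi-square per gene was 18.4, 13.6 and 29.8 between trametinib replicates 1 and 2, 1 and 3, and 2 and 3, and 6.13, 26.6 and 27.9 between the same pairs of vehicle replicates, so that replicate 3 was far from replicate 2 in both groups. The 8 macrophage markers summed to 14758 to 16392 CPM with trametinib and 15773 to 17553 CPM with vehicle; 2 of them rose (Cd14, the LPS coreceptor, and Mertk) and 2 fell (Adgre1, which encodes F4/80, and Itgam). Cd14 did not pass when trametinib replicate 1 or 2 or vehicle replicate 1 or 2 was left out (adjusted p 0.1002, 0.0601, 0.0786 and 0.0693). Itgam did not pass without a low-count filter (0.124) or when trametinib replicate 1, 2 or 3 or vehicle replicate 1 or 2 was left out (0.107, 0.0856, 0.116, 0.126 and 0.134). Neutrophil markers summed to at most 10.0 CPM, and those of lymphocytes, of mast cells and eosinophils, and of fibroblasts and mesothelium to at most 2.39 CPM in any library; Mcpt4 and Msln had no count. In such bulk samples fewer cells of a type and less RNA per cell cannot be told apart, and the part of these marker changes in the results below was not tested.

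Trametinib split the set. With edgeR's quasi-likelihood test and an adjusted p under 0.05 over all 11286 genes tested, 3 of the 10 genes rose (Zfp36, Zfp36l1 and Rc3h2), 5 fell (Zfp36l2, Zc3h12a, Zc3h12c, Elavl1 and Mapkapk2) and 2 did not pass (Rc3h1 and Khsrp). Of all tested genes, 34.3% passed, with 15.8% higher and 18.4% lower under trametinib. In each of the 8 genes that passed, the libraries of the 2 groups lay fully apart (3 with trametinib above vehicle, 5 below). The same held for 49.3% of all tested genes, 23.4% with trametinib above vehicle and 25.9% below. The median log2 fold change, trametinib over vehicle, was −0.22 over the 10 genes and −0.01 over all tested genes. Without vehicle replicate 3 the same counts of 3 higher and 5 lower were found. Only 2 rose without vehicle replicate 1 or without vehicle replicate 2. Only 3 fell without trametinib replicate 2 or without vehicle replicate 1, and 4 fell without trametinib replicate 1 or 3 or vehicle replicate 2.

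**Figure D1:**
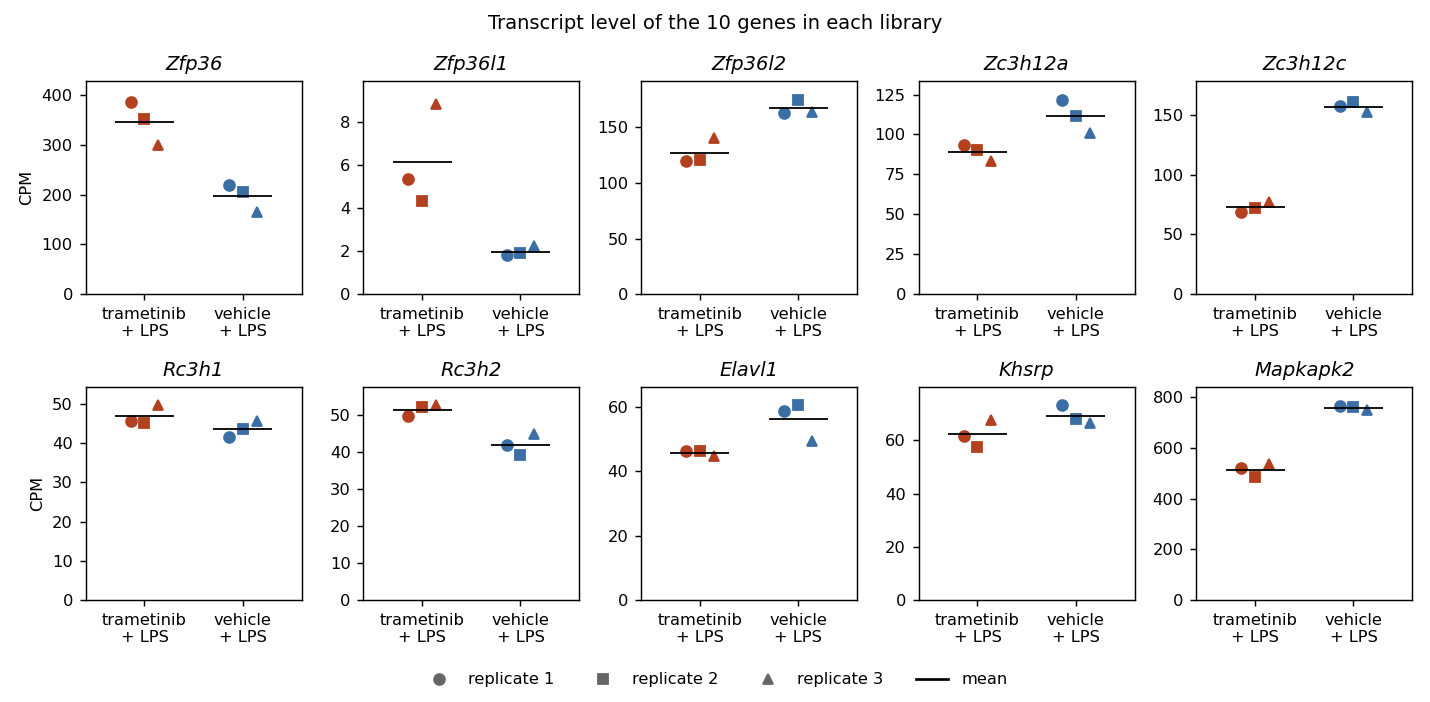
Level of each of the 10 genes in CPM (vertical axes, starting at 0) in the 3 trametinib + LPS and the 3 vehicle + LPS libraries; marker shapes give the replicate number and lines the group mean. The trametinib points of Zfp36, Zfp36l1 and Rc3h2 lie above all vehicle points, those of Zfp36l2, Zc3h12a, Zc3h12c, Elavl1 and Mapkapk2 lie below them, and the groups overlap in Rc3h1 and Khsrp.

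The TTP family moved in opposite directions, with Zfp36 and Zfp36l1 higher and Zfp36l2 lower. Zfp36 (ENSMUSG00000044786, mm10 chromosome 7, 28376784 to 28380253), the gene of TTP itself, was at 386, 353 and 299 CPM in the trametinib libraries and at 219, 206 and 166 CPM in the vehicle libraries. The lowest trametinib library was thus above the highest vehicle library, and replicate 3 was the lowest in both groups. Zfp36 rose 1.76-fold (log2 fold change 0.81 ± 0.13, SE; adjusted p 0.00194). Between libraries of the same number its ratio of trametinib to vehicle was 1.76, 1.72 and 1.80, a narrower spread than that of the levels within either group.

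Zfp36l1 (ENSMUSG00000021127, mm10 chromosome 12, 80107754 to 80113013), which encodes the TTP relative BRF1, had the largest fold change of the 10 genes from the lowest level. It was at 5.32, 4.30 and 8.79 CPM with trametinib, from 90, 80 and 158 counts. In the vehicle libraries it was at 1.79, 1.90 and 2.21 CPM, from 32, 34 and 41 counts. Trametinib replicate 3 stood above the other trametinib libraries, and every trametinib library was above every vehicle library. Zfp36l1 rose 3.11-fold (log2 fold change 1.64 ± 0.28, SE; adjusted p 0.00319), and by 1.28 on the log2 scale without trametinib replicate 3. A long noncoding RNA gene on the opposite strand, Gm26669, overlaps 1672 exonic bases of Zfp36l1. The strand setting of the counting is not given in the sources used here, so reads from both strands cannot be told apart.

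Zfp36l2 (ENSMUSG00000045817, mm10 chromosome 17, 84183931 to 84187947), another TTP relative, was at 120, 121 and 140 CPM with trametinib and at 163, 175 and 164 CPM with vehicle. All trametinib libraries were below all vehicle libraries, and trametinib replicate 3 was the closest to them. Zfp36l2 fell, with a log2 fold change of −0.40 ± 0.08 (SE; adjusted p 0.00666). Its call and those of Zfp36 and Zfp36l1 were the same in all 13 alternatives. The Zfp36 and Zfp36l2 exons overlap antisense genes by 125 and 105 bases, with the same limit on strand. Zfp36l3, the family member known from mouse placenta, had 1 count with trametinib and 1 with vehicle and was not tested.

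Within a library, the ratio of Zfp36 to Zfp36l2 per kilobase of exon was 3.28, 2.97 and 2.17 in the trametinib libraries and 1.37, 1.20 and 1.03 in the vehicle libraries (exact permutation test, two-sided, p = 0.1, the smallest p that 3 against 3 allows). The ratio of Zfp36l1 to Zfp36l2 averaged 0.0561 ± 0.0164 with trametinib and 0.0139 ± 0.00177 with vehicle (SD, n = 3 per group; exact permutation p = 0.1). For both ratios every trametinib library was above every vehicle library, and such ratios do not depend on how libraries are scaled. Of 6 ratios between relatives or partners that were computed, all had p = 0.1 before and after Benjamini-Hochberg adjustment (exact permutation tests), so none could pass.

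**Figure D2:**
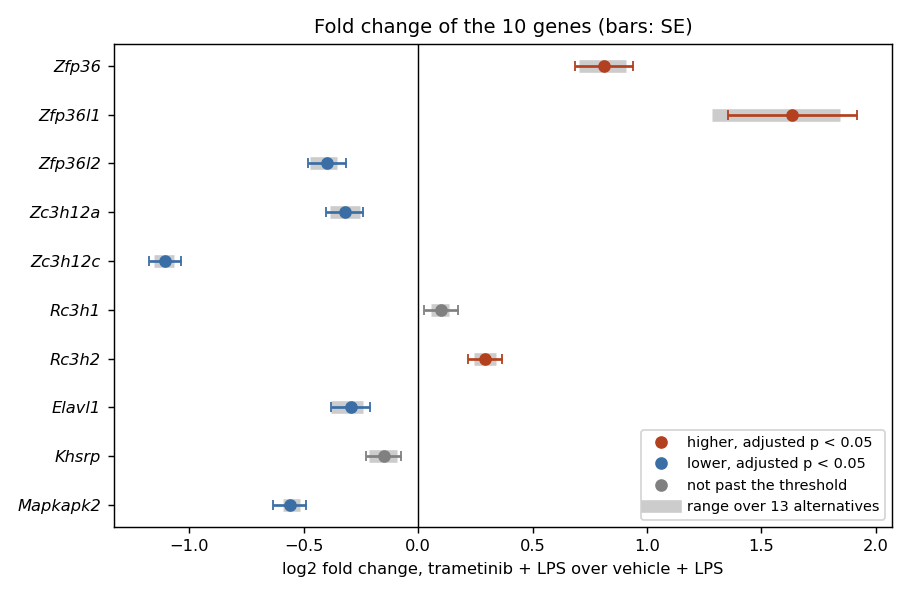
Log2 fold change, trametinib + LPS over vehicle + LPS, of each of the 10 genes with its SE (bars) and the range over 13 alternative settings (grey bands). Zfp36l1 lies farthest to the right at 1.64 and Zc3h12c farthest to the left at −1.11, and no grey band crosses 0.

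Both genes of the Regnase family in the set fell, Zc3h12c 2.15-fold and Zc3h12a 1.25-fold. Zc3h12c (ENSMUSG00000035164, mm10 chromosome 9, 52111344 to 52168572) encodes Regnase-3, an endonuclease of macrophages. It was at 69.0, 71.8 and 77.6 CPM with trametinib and at 157, 161 and 153 CPM with vehicle. The libraries of each group lay close together and far from the other group. Zc3h12c fell, with a log2 fold change of −1.11 ± 0.07 (SE; adjusted p 9.79e-05), and had the smallest p of the 10 genes.

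Zc3h12a (ENSMUSG00000042677, mm10 chromosome 4, 125118423 to 125127840), the gene of Regnase-1, was at 93.6, 90.5 and 83.5 CPM with trametinib and at 122, 112 and 101 CPM with vehicle. The groups did not overlap, and replicate 3 was the lowest of both, as it was for Zfp36. Zc3h12a fell, with a log2 fold change of −0.32 ± 0.08 (SE; adjusted p 0.0161). Its adjusted p was 0.0538 without trametinib replicate 2 and 0.0656 without vehicle replicate 1, and 0.00147 to 0.0656 across the alternatives. The ratio of Zc3h12c to Zc3h12a per kilobase of exon averaged 0.345 ± 0.0416 with trametinib and 0.595 ± 0.0461 with vehicle (SD, n = 3 per group; exact permutation p = 0.1). Zc3h12d, the gene of Regnase-4 and a family member outside the set, was at 29.9, 30.8 and 24.5 CPM with trametinib and at 23.2, 23.7 and 15.8 CPM with vehicle, without overlap. Its log2 fold change was 0.44 ± 0.16 at an adjusted p of 0.0728 (SE), and it passed with DESeq2 (0.0345) and with the replicate block (0.00489), with the alternatives spanning 0.00489 to 0.193. Zc3h12d was named after its values were seen.

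Of the Roquin genes, Rc3h2 rose and Rc3h1 did not pass. Rc3h2 (ENSMUSG00000075376, mm10 chromosome 2, 37370069 to 37422903), the gene of Roquin-2, was at 49.8, 52.2 and 52.7 CPM with trametinib and at 42.0, 39.3 and 44.9 CPM with vehicle, with no overlap. It rose 1.23-fold (log2 fold change 0.29 ± 0.07, SE; adjusted p 0.0152). The adjusted p of Rc3h2 was 0.0591 without vehicle replicate 1 and 0.0697 without vehicle replicate 2, with the alternatives spanning 0.00494 to 0.0697. Rc3h1 (ENSMUSG00000040423, mm10 chromosome 1, 160906418 to 160974978), the gene of Roquin-1, was at 45.6, 45.2 and 49.8 CPM with trametinib and at 41.6, 43.7 and 45.7 CPM with vehicle. Its groups overlapped, and with a log2 fold change of 0.10 ± 0.07 (SE; adjusted p 0.321) it did not pass.

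Of the AU-rich binding proteins outside the TTP family, the stabiliser Elavl1 fell and the decay factor Khsrp did not pass. Elavl1 (ENSMUSG00000040028, mm10 chromosome 8, 4285382 to 4325413) was at 46.2, 46.3 and 44.8 CPM with trametinib and at 58.7, 60.3 and 49.4 CPM with vehicle. Vehicle replicate 3 lay nearer to the trametinib libraries than to the other vehicle libraries. Elavl1 fell, with a log2 fold change of −0.30 ± 0.09 (SE; adjusted p 0.0281). The call for Elavl1 was the least stable of the set: the adjusted p was 0.0869, 0.0681 and 0.0699 without trametinib replicates 1, 2 and 3, and 0.106 and 0.107 without vehicle replicates 1 and 2. It was 0.00156 without vehicle replicate 3, the lowest of its range of 0.00156 to 0.107. Ccl25, on the opposite strand, overlaps 204 exonic bases of Elavl1 and had 103 to 139 counts per library, against 781 to 1082 for Elavl1. Khsrp (ENSMUSG00000007670, mm10 chromosome 17, 57021051 to 57031522), whose product KSRP recruits decay enzymes, was at 61.7, 57.5 and 67.6 CPM with trametinib and at 73.2, 68.0 and 66.3 CPM with vehicle. Trametinib replicate 3 lay among the vehicle libraries, and the log2 fold change of Khsrp was −0.15 (SE 0.08, adjusted p 0.168). Gm17949, on the opposite strand, overlaps 63 exonic bases of Khsrp.

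Mapkapk2 (ENSMUSG00000016528, mm10 chromosome 1, 131053700 to 131097826), the gene of the kinase MK2, was at 518, 485 and 536 CPM with trametinib and at 762, 759 and 751 CPM with vehicle. The vehicle libraries lay close together and all stood above the trametinib libraries. Mapkapk2 fell, with a log2 fold change of −0.56 ± 0.07 (SE; adjusted p 0.000787), with the same call in all 13 alternatives. Its relative Mapkapk3, which encodes MK3, was at 68.6, 67.0 and 68.3 CPM with trametinib and at 51.6, 47.4 and 54.3 CPM with vehicle, and rose 1.33-fold (adjusted p 0.00279). The ratio of Mapkapk3 to Mapkapk2 per kilobase of exon averaged 0.0728 ± 0.00297 with trametinib and 0.0371 ± 0.00272 with vehicle (SD, n = 3 per group; exact permutation p = 0.1), so Mapkapk2 stayed the more abundant of the pair in every library.

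Set side by side per kilobase of exon, the levels of the 10 genes spanned a wide range. Mapkapk2 was the highest at 169 ± 8.52 CPM per kilobase with trametinib and 249 ± 1.99 with vehicle, followed by Zfp36 at 99.7 ± 12.6 with trametinib and 56.8 ± 7.92 with vehicle (SD, n = 3 per group, here and below). Zfp36l2 was at 36.0 ± 3.24 with trametinib and 47.4 ± 1.88 with vehicle, and Zc3h12a at 30.9 ± 1.79 with trametinib and 38.7 ± 3.56 with vehicle. By this length the libraries of Zfp36 and Zfp36l2 overlapped with vehicle and did not with trametinib. The overlap with vehicle depends on the length used for Zfp36, 3470 bases of exon or 2790 bases of its principal transcript. By the principal transcript Zfp36 averaged 124 CPM per kilobase with trametinib and 70.6 with vehicle. For Zfp36l2 both lengths are 3530 bases, so its values stay the same. Next came Khsrp at 14.4 ± 1.17 with trametinib and 16.0 ± 0.833 with vehicle, and Zc3h12c at 10.6 ± 0.641 with trametinib and 22.9 ± 0.604 with vehicle, which changed places between the groups. Elavl1 was at 4.42 ± 0.0796 with trametinib and 5.42 ± 0.573 with vehicle, Rc3h1 at 4.14 ± 0.226 with trametinib and 3.86 ± 0.181 with vehicle, and Rc3h2 at 2.63 ± 0.0803 with trametinib and 2.14 ± 0.142 with vehicle. With trametinib the libraries of Elavl1 and Rc3h1 overlapped. Zfp36l1 was the lowest at 2.05 ± 0.788 with trametinib and 0.658 ± 0.0733 with vehicle, and with trametinib its libraries overlapped those of Rc3h2. When levels were divided by the length of the principal transcript, Rc3h2 stood above Rc3h1 in both groups and the other places were the same.

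The list of the p38 arm held 14 genes, among them Mapkapk3 and Mapkapk5, which encode relatives of MK2. Of 12 tested, 3 rose (Mapkapk3, Map2k3 and Dusp1), 2 fell (Mapk14 and Dusp16) and 7 did not pass, with a median log2 fold change of −0.01. The share that passed was 41.7%, against 34.3% of all tested genes. Mapk14, the gene of p38 alpha, was at 75.6, 64.0 and 86.3 CPM with trametinib and at 141, 158 and 142 CPM with vehicle, and fell, with a log2 fold change of −0.97 ± 0.11 (SE; adjusted p 0.000492). Map2k3, which encodes the p38 activator MKK3, was at 76.2, 84.7 and 71.0 CPM with trametinib and at 63.3, 56.2 and 46.3 CPM with vehicle, and rose 1.40-fold (adjusted p 0.0143). The phosphatases Dusp16 and Dusp1, which act on p38 and JNK, differed in direction. Dusp16 was at 8.87, 8.33 and 12.2 CPM with trametinib and at 37.6, 36.0 and 27.5 CPM with vehicle. It fell, with a log2 fold change of −1.78 ± 0.17 (SE; adjusted p 0.000463), whereas Dusp1, the gene of MKP-1 and a brake on p38, was at 111, 104 and 82.3 CPM with trametinib and at 63.3, 60.4 and 36.6 CPM with vehicle (log2 fold change 0.90 ± 0.23, SE; adjusted p 0.0278). Dusp1 did not pass when no low-count filter was used (adjusted p 0.103), nor when trametinib replicate 1, trametinib replicate 2 or vehicle replicate 2 was left out (0.0771, 0.0738 and 0.0643), with the alternatives spanning 3.12e-05 to 0.103. The call for Map2k3 was lost without trametinib replicate 2 (0.0531, with the alternatives spanning 0.00182 to 0.0531), and in that setting 1 gene of the arm rose, Mapkapk3.

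Among 15 other RNA-binding proteins and endonucleases, of which 13 were tested, 1 rose, 4 fell and 8 did not pass, with a median of −0.17. In this list 38.5% passed, near the 34.3% of all tested genes. Arid5a, which binds the Il6 mRNA and protects it from Regnase-1, was the one that rose, to 119, 107 and 92.9 CPM with trametinib against 58.2, 55.4 and 54.1 CPM with vehicle (log2 fold change 0.92 ± 0.09, SE; adjusted p 0.000344). The 4 that fell were Hnrnpd, the gene of the AU-rich binding protein AUF1, Ptbp1, a splicing and stability factor, Ybx1, a cold-shock domain protein, and Celf1, which binds GU-rich elements. Their log2 fold changes were −0.35, −0.39, −0.42 and −0.26 (adjusted p 0.00407, 0.00311, 0.00903 and 0.0103). Celf1 was named after its values were seen, and it did not pass when trametinib replicate 1 or 2 was left out (0.0533 and 0.0521), with the alternatives spanning 0.00691 to 0.0533. With the replicate block, and likewise with DESeq2, 2 genes of this list rose, Arid5a and Zc3h12d. Zc3h12b and Zfp36l3 were too low to test.

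**Figure D3:**
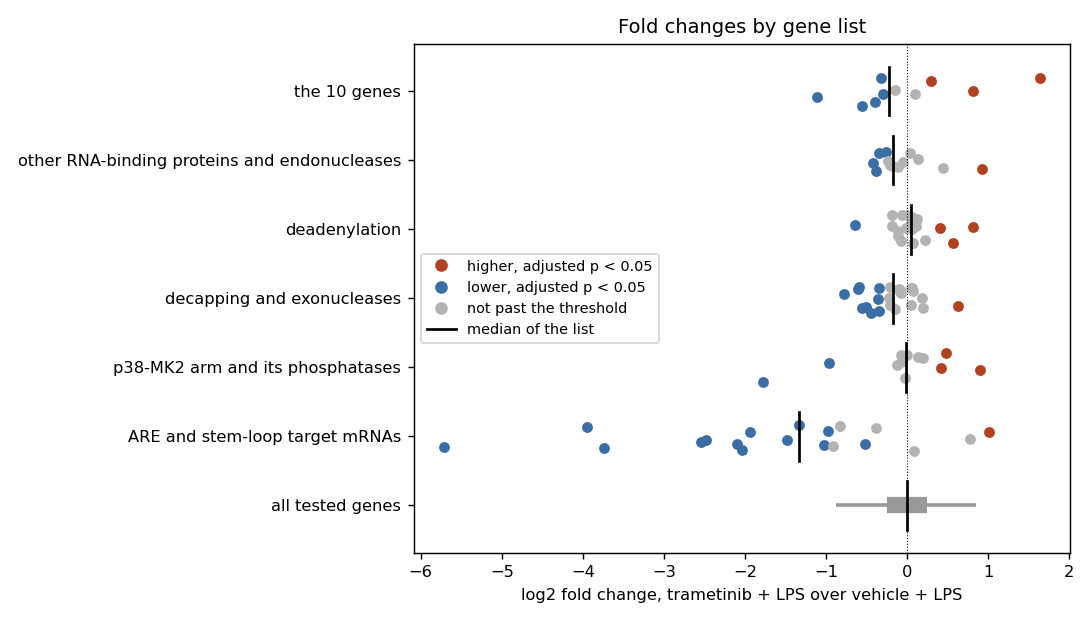
Log2 fold change, trametinib + LPS over vehicle + LPS, of each tested gene in the set and in 5 surrounding lists; black lines are medians, and for all tested genes the thick bar spans the 25th to 75th percentile (−0.25 to 0.25) and the thin bar the 5th to 95th (−0.88 to 0.85). The target mRNAs lie furthest to the left with a median of −1.34, while the medians of the other lists lie between −0.22 and 0.05.

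Few genes of the deadenylation list changed. It held CCR4-NOT genes, whose complex the TTP proteins recruit, and others such as Btg1, Btg2 and the poly(A) polymerase gene Tent5c. Of 20 genes, 3 rose, 1 fell and 16 did not pass, with a median log2 fold change of 0.05. Thus 15% rose and 5% fell, against 15.8% and 18.4% of all tested genes. Of the 11 Cnot genes of the CCR4-NOT complex and its partners, 1 rose, with log2 fold changes of all 11 from −0.19 to 0.40. It was Cnot4, a ubiquitin ligase (1.32-fold, adjusted p 0.0283). Cnot4 did not pass with replicate number as a block (adjusted p 0.0521), nor when trametinib replicate 1 or 2 or vehicle replicate 1 or 2 was left out (0.0932, 0.0864, 0.0807 and 0.0969), with the alternatives spanning 0.00405 to 0.0969. With the block the Cnot gene that rose was instead Cnot6l, which encodes a catalytic deadenylase subunit (log2 fold change 0.22 and adjusted p 0.111 without the block, 0.0254 with it). Cnot6l also passed without vehicle replicate 3 (0.00273), and its alternatives spanned 0.00273 to 0.318. The BTG genes, whose products bind the deadenylase, moved apart: Btg1 averaged 256 ± 7.84 CPM with trametinib and 173 ± 18.3 CPM with vehicle (adjusted p 0.00215), and Btg2 averaged 14.7 ± 2.81 CPM with trametinib and 22.9 ± 0.733 CPM with vehicle (SD, n = 3 per group; adjusted p 0.00534). Tent5c, the gene of a poly(A) polymerase that lengthens tails, rose to 446, 462 and 403 CPM with trametinib, against 229, 211 and 310 CPM with vehicle (adjusted p 0.00368).

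Downstream of deadenylation, 1 of 24 genes of decapping and exonucleases rose, 9 fell and 14 did not pass, with a median of −0.18. Thus 4.17% rose and 37.5% fell, against 15.8% and 18.4% of all tested genes. Dcp1a, an activator of the decapping enzyme, rose 1.54-fold (adjusted p 0.000983). Dcp2, the gene of the enzyme, had a log2 fold change of 0.18 ± 0.07 (SE; adjusted p 0.0866). Most of the falls lay in the exosome, the complex that degrades RNA from the 3′ end. Of 9 Exosc genes 7 fell, with log2 fold changes of all 9 from −0.60 to −0.21, among them Exosc10, its nuclear nuclease (−0.44, adjusted p 0.00283), and Exosc1 (−0.60, adjusted p 0.0100). Ttc37, a scaffold of the SKI complex that feeds the cytoplasmic exosome, fell (log2 fold change −0.51; adjusted p 0.00391). The Exosc genes other than Exosc10 were low, from 4.88 to 16.4 CPM on average with trametinib and 7.20 to 19.0 CPM with vehicle, and the count of genes that fell in this list was 3, 5, 5 and 5 without trametinib replicates 1 and 2 and vehicle replicates 1 and 2. With DESeq2 4 of the 7 Exosc genes passed, and Exosc3, Exosc4 and Exosc8 did not (adjusted p 0.118, 0.110 and 0.0839). With the replicate block 3 genes of this list rose: Dcp1a, Dcp2 (adjusted p 0.0444) and Xrn1, the gene of the 5′ exonuclease (0.0255 with the block, 0.0677 without it). Dcp2 also passed without trametinib replicate 3 (0.0467) and Xrn1 without vehicle replicate 3 (0.0135), with the alternatives spanning 0.0444 to 0.217 for Dcp2 and 0.0135 to 0.234 for Xrn1.

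Most of the mRNAs listed as targets of these proteins fell. Of 22 listed targets 19 were tested: 13 fell, 1 rose and 5 did not pass, with a median log2 fold change of −1.34 against −0.01 for all tested genes, of which 18.4% fell. Without 1 library 9 to 14 targets fell. With the replicate block 14 fell, with Il6 and Ier3 among them and Il1b not. Csf2, Il23a and Lif were too low to test. At 1 time point, less transcription and faster decay of these mRNAs cannot be told apart. Tnf, whose element is printed above with overlapping nonamers, was at 405, 437 and 408 CPM with trametinib and at 1159, 1112 and 890 CPM with vehicle, and fell (log2 fold change −1.34; adjusted p 0.000178). Cxcl2, a neutrophil attractant with 4 nonamers, was at 2.48, 1.88 and 5.45 CPM with trametinib and at 55.0, 62.4 and 34.0 CPM with vehicle. It fell, with a log2 fold change of −3.94 ± 0.44 (SE; adjusted p 0.00206), and the log2 fold change was −4.53 without trametinib replicate 3. Ptgs2, the gene of cyclooxygenase-2, was at 107, 90.2 and 139 CPM with trametinib and at 222, 190 and 253 CPM with vehicle (log2 fold change −0.98; adjusted p 0.00477).

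Ccl3, Nfkbiz and Il10, which hold no nonamer, fell as well. Ccl3, a chemokine, was at 73.6, 72.4 and 83.2 CPM with trametinib and at 466, 514 and 304 CPM with vehicle, and fell (log2 fold change −2.49; adjusted p 0.000308). Nfkbiz, a cofactor of NF-kappaB whose mRNA is a target of Regnase-1 and Roquin, was at 49.2, 41.8 and 58.0 CPM with trametinib and at 152, 142 and 122 CPM with vehicle (log2 fold change −1.48; adjusted p 0.000361). Tnfaip3, which encodes the NF-kappaB brake A20 and holds 1 nonamer, fell (log2 fold change −0.52; adjusted p 0.00134). Il10 was at 4.31, 4.14 and 4.95 CPM with trametinib and at 12.4, 9.31 and 5.67 CPM with vehicle (log2 fold change −1.03; adjusted p 0.0235). Il10, which encodes an anti-inflammatory cytokine, did not pass when trametinib replicate 1, 2 or 3 or vehicle replicate 2 was left out (0.0824, 0.0841, 0.0535 and 0.0689), with the alternatives spanning 0.000157 to 0.0841. Ifnb1, the gene of interferon beta and the 1 target that rose, was at 6.62, 6.34 and 7.51 CPM with trametinib and at 2.47, 2.51 and 5.13 CPM with vehicle (log2 fold change 1.01 ± 0.27, SE; adjusted p 0.0229). It was named after its values were seen, and did not pass when trametinib replicate 1, 2 or 3 or vehicle replicate 1 or 2 was left out (0.0681, 0.0604, 0.0683, 0.0708 and 0.0722), with the alternatives spanning 9.08e-05 to 0.0722. Without vehicle replicate 3, 2 targets rose, Ifnb1 and Icosl, the latter by 1.59 on the log2 scale (adjusted p 0.00103). Icosl was at 159, 146 and 215 CPM with trametinib and at 55.6, 59.2 and 190 CPM with vehicle. With all libraries Icosl did not pass, at 0.77 on that scale (adjusted p 0.357). Of the other targets that did not pass, Nfkbid leaned up (0.09), and Il6, Il12b and Ier3 leaned down (−0.39, −0.83 and −0.92).

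The other 5 targets that fell, also named after their values were seen, were the chemokine genes Ccl4, Cxcl1 and Ccl2, the cytokine gene Il1a, and Plaur, which encodes the urokinase receptor. The log2 fold change was −2.54 for Ccl4, −1.94 for Il1a and −2.04 for Cxcl1, at an adjusted p of 0.00297, 0.00332 and 0.00935. Ccl2 was at 1.42 CPM or less in each trametinib library and at 89.1, 107 and 11.7 CPM in the vehicle libraries, so that vehicle replicate 3 lay far below the other vehicle libraries and above all trametinib libraries. Its log2 fold change was −5.72 ± 1.15 (SE; adjusted p 0.0222). Ccl2 did not pass with limma-voom (0.0609), nor when trametinib replicate 1, 2 or 3 or vehicle replicate 1 or 2 was left out (0.0824, 0.0849, 0.0765, 0.0722 and 0.0677), with the alternatives spanning 6.44e-10 to 0.0849. The log2 fold change for Plaur was −3.74 at an adjusted p of 0.0135, with 0.0543, 0.0518 and 0.0525 without trametinib replicates 2 and 3 and vehicle replicate 2, and the alternatives spanning 9.54e-08 to 0.0543.

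Il1b and Il6 varied strongly between replicates. Il1b was at 66.7, 39.9 and 156 CPM with trametinib and at 438, 409 and 278 CPM with vehicle, so that replicate 3 was the highest trametinib and the lowest vehicle library. Its log2 fold change was −2.10 (adjusted p 0.0419), and −2.82 without trametinib replicate 3. Il1b did not pass with replicate number as a block (adjusted p 0.125), with no low-count filter (0.0939), without trametinib replicates 1 and 2 (0.122 and 0.0538) and without vehicle replicates 1, 2 and 3 (0.131, 0.133 and 0.0930), with the alternatives spanning 0.00302 to 0.133. Il6, the classical Regnase-1 target, was at 11.9, 10.0 and 27.1 CPM with trametinib and at 16.0, 13.2 and 34.8 CPM with vehicle. Replicate 3 was the highest of both groups, the groups overlapped, and with a log2 fold change of −0.39 (adjusted p 0.641) Il6 did not pass. It was 0.16 without vehicle replicate 3. Between libraries of the same number its ratio of trametinib to vehicle was 0.741, 0.763 and 0.778, and with the replicate block the adjusted p was 0.00665, with the alternatives spanning 0.00665 to 0.905.

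**Figure D4:**
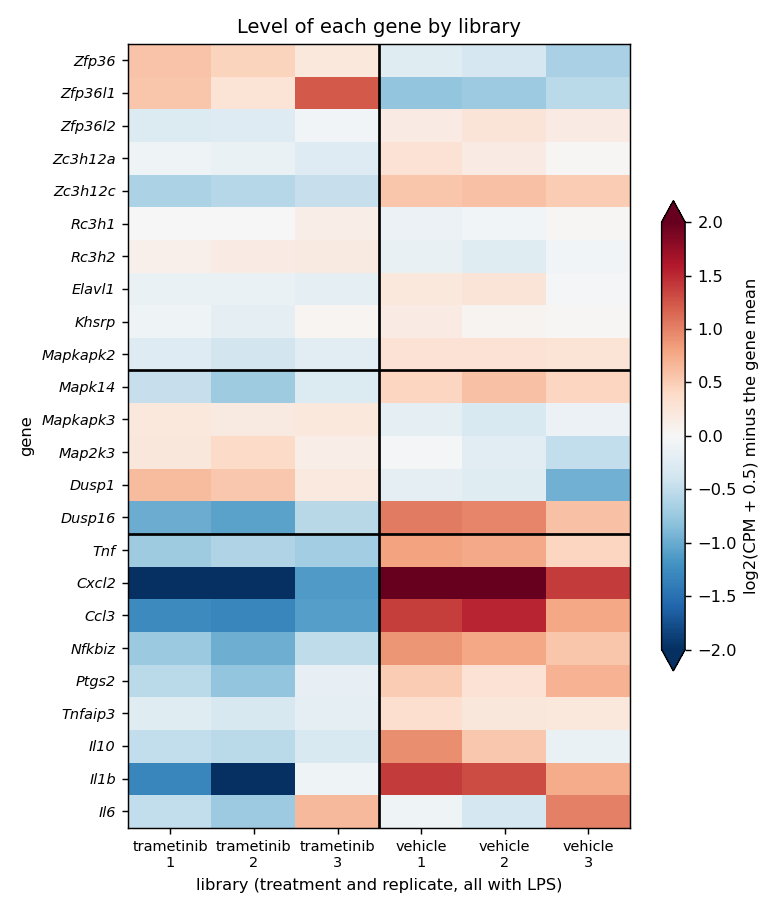
Level of each gene (rows: the 10 genes, 5 genes of the p38-MK2 arm and 9 target mRNAs) in each library (columns: 3 trametinib, then 3 vehicle), as log2(CPM + 0.5) minus the gene's mean over the 6 libraries, with colours capped at −2 and 2. Zfp36, Zfp36l1, Mapkapk3, Map2k3 and Dusp1 are high in the trametinib libraries, Mapkapk2, Mapk14 and most targets are low there, and Il6 follows the replicate number.

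Across all genes, the nonamer count was set beside the fold change as a description. Of 170 tested genes with 2 or more nonamers, 28.8% fell and 10% rose, with a median log2 fold change of −0.12. Of 648 genes with 1 nonamer, 20.8% fell and 15.9% rose (median −0.03), and of 10065 genes with none, 18.4% fell and 16.2% rose (median −0.0043). The classes differ in 3′ untranslated length as well, with medians of 2817, 2141 and 956 bases, and the part of length in this order was not tested. Elavl1, the nonamer-rich gene of the set, fell. The genes of the set with 1 nonamer included 3 that rose (Zfp36, Zfp36l1 and Rc3h2), 1 that fell (Zfp36l2) and 1 that did not pass (Rc3h1). Of those with none, Zc3h12a, Zc3h12c and Mapkapk2 fell (log2 fold changes −0.32, −1.11 and −0.56) and Khsrp did not pass.

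The genes whose profile over the 6 libraries was most like that of Zfp36, by the root mean square difference of gene-centred log2(CPM + 0.5) among 8576 genes with a mean of at least 5 CPM, were Bcl3, Zfp467, Sdc1, Mcoln2 and Sertad3, with differences of 0.0575, 0.0639, 0.0643, 0.0797 and 0.0971. Bcl3, a nuclear IkappaB protein, was at 137, 118 and 107 CPM with trametinib and at 71.9, 67.0 and 59.1 CPM with vehicle. It shared with Zfp36 both the rise and the order of the replicates, which follows from its choice by profile. The profile nearest to Zc3h12a was that of Nfkbia, the gene of IkappaB alpha, at 479, 456 and 418 CPM with trametinib and 613, 578 and 515 CPM with vehicle, with a difference of 0.0170. Rae1, Tmem11, Bloc1s4 and Ms4a6d followed with differences of 0.0277, 0.0285, 0.0291 and 0.0342.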

How the data were processed

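RNA was measured by sequencing of libraries depleted of ribosomal RNA. The deposited table gives the authors' raw read counts per gene. The programs listed in the submitters' processing notes are R 3.6.0, DESeq2 1.24.0, HISAT2 2.1.0 and featureCounts 1.6.4, with the mm10 build; which annotation and strand setting the counting had is not given in the sources used here. Of 25354 entries, 310 identical repeats were removed, leaving 25044 genes, of which 25033 were found in GENCODE M21 (mm10), the source of symbols, positions, exon lengths and transcripts.

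The labels gave the groups. After filterByExpr and TMM scaling, the groups were compared in edgeR 4.0.16 with its quasi-likelihood test (robust, group as the only term), with Benjamini-Hochberg adjustment over 11286 genes and a threshold of 0.05. SEs were derived from the F statistic. Because the origin of each replicate is not labelled, p-values cover only the spread among these libraries, which may be technical. Alternatives were DESeq2 1.42.0 and its size factors, TMM without the 10 most abundant and mitochondrial genes, no filter, 1 CPM in 3 libraries, voom in limma 3.58.1, a replicate block, and each library left out in turn.

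Whether replicate numbers pair the samples was checked by correlating deviations from the group means. The correlation was 0.346, 0.418 and 0.307 for number-matched pairs and −0.258 to −0.0754 for the rest. Deviations cancel within each group, so positive values for matched pairs largely force negative values for the rest, which are not separate evidence. On the matched values the numbers were taken to pair the samples. This comes from the data, since the labels do not state it. The main test left this pairing out, and it entered the edgeR fits only as the replicate block among the alternatives. With the block the set had the same counts of 3 higher and 5 lower. On simulated counts for 11286 genes, the test found 27 of 50 genes with a 1.5-fold change, 48 of 50 with a 2-fold change, and 5 false calls among 11086 genes. The simulation gave every gene the same dispersion. It also left 11086 of 11286 genes unchanged, whereas 3869 genes were called in the data. Its recovery is thus not the power of the test in these data.

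The 10 genes, the lists of other genes and the tests were chosen with earlier results of these data known, and so were the motifs. Named genes are all 10, up to 4 of each of 5 surrounding lists with the smallest p, and a fixed few (Tnf, Il6, Il1b, Il10, Cxcl2, Ccl3, Nfkbiz, Ptgs2, Mapk14, Mapkapk3, Dusp1, Egr1, Spry2 and Dusp6). Dusp6 had 0 or 1 count in each trametinib library and 258, 306 and 39 counts in vehicle replicates 1, 2 and 3. Its adjusted p was 0.0149 in the main edgeR test and at most 0.0605 across the alternatives. R 4.3.3, Python 3.11.15, SciPy 1.17.1 and matplotlib 3.10.9 were used.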

Additional observations from a re-analysis of the deposited data

How the results depend on the processing

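Over 13 alternatives the log2 fold changes of the 10 genes kept their sign in all 130 values, and 121 kept their side of the threshold; the 9 that did not came from leaving out 1 library and concern Zc3h12a, Rc3h2 and Elavl1. Without 1 library the genes of the set that rose numbered 2 to 3 and those that fell 3 to 5. All genes called then numbered 2428 to 4663 in place of 3869 (2428 without trametinib replicate 1, 2538 without vehicle replicate 1 and 4663 without vehicle replicate 3). In the decapping and exonuclease list the genes that rose numbered 1 to 2 and those that fell 3 to 9; in the p38 arm the genes that rose numbered 1 to 3, and among the targets 0 to 2. With DESeq2, 2 of the other RNA-binding proteins and endonucleases rose, as did 2 with the replicate block, in place of 1, and with the block 3 genes of decapping and exonucleases rose in place of 1. The block raised the calls over all genes to 4836. Among the 98 tested genes of the set and its lists it ended 2 calls (Cnot4 and Il1b) and gave 7 (Il6, Ier3, Tial1, Zc3h12d, Cnot6l, Dcp2 and Xrn1), and it changed no other call among them. Il6 ranged from −0.96 to 0.16 without 1 library. With 3 libraries a group, changes of 1.5-fold were often missed in the simulated data. There every gene had the same dispersion and a far smaller share of genes was changed than was called here. That recovery does not carry over to Rc3h1 and Khsrp, whose own SEs were 0.07 and 0.08 on the log2 scale. Not passing does not show that they were unchanged.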
